A study of Mus musculus with 13 samples.

Results

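The enzymes that turn cholesterol into bile acids were followed in liver RNA of mice with and without bile duct ligation (BDL), the surgical closure of the common bile duct that traps bile in the liver. The 10 genes, Cyp7a1, Cyp8b1, Cyp27a1, Cyp7b1, Hsd3b7, Akr1d1, Amacr, Acox2, Slc27a5 and Baat, were chosen by name as enzymes of bile acid synthesis and conjugation. All 10 were found by their Entrez identifiers among 23019 genes listed in each of 3 count tables, and all 10 passed the filter on low counts in each comparison. The 13 livers came from male C57 mice with intact Gnmt, 3 months old. Of these, 5 were without BDL and with no treatment named (no BDL). Another 4 had BDL and a control oligonucleotide (miR-Ctrl BDL). The last 4 had BDL and an inhibitor of the microRNA miR-873-5p (anti-miR-873-5p BDL, called inhibitor-treated or inhibitor mice from here on). By the study's methods, 60 µg of oligonucleotide per mouse was given in the tail vein on days 3 and 5 after surgery and the livers were taken on day 7. The methods name no injection for the no BDL mice, so ligation and injection cannot be told apart in either comparison with them.

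Bile acids are made in hepatocytes by 2 routes. The classical route starts with Cyp7a1, its rate-limiting enzyme, and uses Cyp8b1 to place the hydroxyl group that distinguishes cholic acid. The alternative route starts with the mitochondrial Cyp27a1 and uses Cyp7b1. Both then pass through Hsd3b7 and Akr1d1, which remodel the steroid rings, and through Amacr and Acox2, which act in peroxisomal shortening of the side chain, while Slc27a5 and Baat join the finished acid to taurine or glycine. Bile acids hold their own synthesis down through the nuclear receptor FXR (Nr1h4), its target SHP (Nr0b2) and the fibroblast growth factor receptor Fgfr4 with its partner Klb.

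The sequences shown are the inhibited microRNA, the first exact seed match of each member whose 3′ untranslated region held any, and the promoter stretches that held a searched motif. The mature microRNA, listed by RefSeq as mmu-miR-873a-5p, is at chr4:36668556-36668576 on the minus strand of GRCm38.p6. Capitals mark the seed, bases 2 to 8:
mmu-miR-873a-5p: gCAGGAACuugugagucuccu
Its complement, GTTCCTG, was present in the longest annotated 3′ untranslated region of 2 of the 10 genes, Cyp7a1 with 1 match and Akr1d1 with 2, none followed by an A, against 14.723% of 20987 genes overall. Capitals mark the match in Cyp7a1 and the first of the 2 in Akr1d1:
Cyp7a1: ttactgctcacGTTCCTGgggat
Akr1d1: cagttggcacaGTTCCTGgtgct
The match in Cyp7a1 started at base 138 of 2600, and those in Akr1d1 at bases 385 and 562 of 1649. A match of letters describes these sequences and was not tested as a site.

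Promoter windows, from 250 bases before to 50 after the start, were at hand from RefSeq for 5 of the 10 genes, Cyp8b1, Cyp27a1, Hsd3b7, Akr1d1 and Acox2. For Cyp27a1 and Akr1d1 the start used lies inside the gene span given below. The Cyp27a1 window (chr1:74713285-74713584) is wholly inside that span, and the printed Akr1d1 stretch runs into it. Acox2 also had a window at an inner start (chr14:8258790-8259089). In these windows, bases before the start are partly or wholly inside the gene. The letters TCAAGG, the core of sites bound by LRH-1 (Nr5a2), and AGGTCA, letters that many nuclear receptors bind, were searched on both strands. Only the Akr1d1 window held them, against 16.355% of 27025 genes with TCAAGG and 18.131% with AGGTCA. The Cyp8b1 window held CAAAGTCCA, letters that HNF4α (Hnf4a) prefers, at base -67, which 0.555% of the genes have in a window; this motif was added after the windows had been read. The Cyp8b1 stretch is chr9:121916306-121916415 on the minus strand and the Akr1d1 stretch chr6:37529923-37529993 on the plus strand of GRCm38.p6, with the matches in capitals (in Akr1d1 on the reverse strand, the second AGGTCA overlapping TCAAGG):
Cyp8b1: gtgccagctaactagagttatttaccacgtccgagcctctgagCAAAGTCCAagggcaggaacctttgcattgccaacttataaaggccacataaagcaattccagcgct
Akr1d1: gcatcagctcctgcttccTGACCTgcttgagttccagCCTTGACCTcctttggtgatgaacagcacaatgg

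Total counts per liver were between 12185333 and 19689037 reads. Levels are normalized counts, CPM with library sizes scaled by TMM (the trimmed mean of M values, which sets the bulk of genes level), and p-values are from edgeR's quasi-likelihood test, adjusted over all genes tested. The labels number the mice but name no separate cages or days of surgery. Of the 4 mice in each BDL group, mouse 3 of miR-Ctrl BDL and mouse 2 of the inhibitor group were in the tables against no BDL but not in the table of the BDL groups, where the study's methods say that outliers were removed. Their mean correlations with their own groups were 0.926 and 0.927, against at least 0.950 in the other 11 mice. List counts, and member values whose call or direction changed without them, are given both ways.

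In the livers without BDL, levels per kb of exon were highest for Slc27a5, at 431.9 normalized counts per kb (372.3 to 505.5 in 5 mice), with a range that the highest mouse of Hsd3b7, at 380.7, reached into. Cyp27a1 with 303.5 per kb and Hsd3b7 with 282.9 per kb followed, with ranges that overlapped. Cyp8b1 with 154.5, Baat with 123.8 and Cyp7b1 with 123.0 per kb made a middle group, each with a range that overlapped the next. Acox2, Amacr and Akr1d1 were between 55.1 and 61.5 per kb on average, again with overlapping ranges. Cyp7a1 was the lowest at 16.1 per kb, and its highest mouse, at 20.9, was below the lowest mouse of every other member. After BDL with miR-Ctrl, Cyp8b1 went from place 4 to place 10 in this order.

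In miR-Ctrl BDL against no BDL, 7 of the 10 enzymes fell, and the loss was deepest in Cyp8b1 and in Cyp7b1, the later hydroxylase of each route. None rose (0 of 10) and 3 (Cyp7a1, Akr1d1 and Acox2) did not pass the threshold of 0.05, where 16.6% of 13072 genes fell and 19.1% rose. The median log2 fold change of the 10 was -1.04, against -0.011 over all genes tested. In 8 of the 10, every miR-Ctrl mouse was below every no BDL mouse, which was true of 14.8% of the genes. Without miR-Ctrl mouse 3 the count was 8 of 10, with Cyp7a1, where 20.1% of genes fell and 22.2% rose. The libraries are of whole liver, in which fewer hepatocytes and less RNA per hepatocyte cannot be told apart.

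The scaling bears on these counts, and why the scalings differ was not tested. Scaled by library size alone, the median of all genes rose by 0.79 on the log2 scale, and 71.6% of genes were called higher and 2.1% lower. On that scale 3 members (Cyp8b1, Cyp7b1 and Slc27a5) were lower and 1 (Acox2) was higher. With the 20 most abundant genes left out of the library size, 40.2% of genes were higher and 5.6% lower, with 5 members lower and Acox2 higher. In this comparison the falls of Cyp8b1, Cyp7b1 and Slc27a5 were called under each of these scalings, and the other directions below are relative to the bulk of genes.

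**Figure D1:**
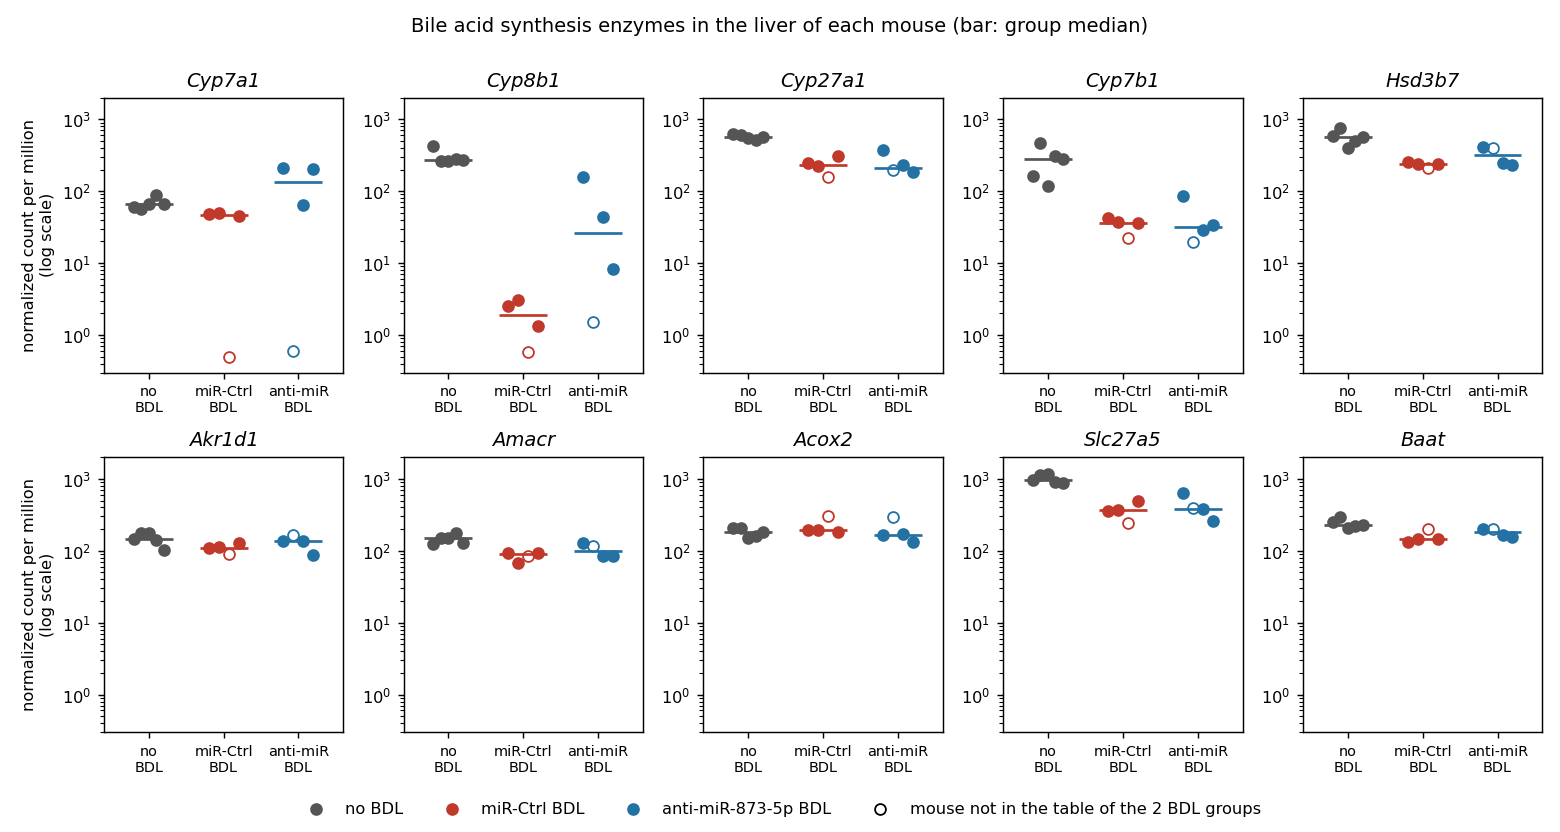
Normalized counts (log axis) of the 10 enzymes in each of 13 mice, in 3 groups; a bar is the group median, and open points are the mice missing from the table of the BDL groups. Cyp8b1 lay between 0.58 and 3.10 in the 4 miR-Ctrl BDL mice and between 261.6 and 426.5 in the 5 no BDL mice, while Acox2 lay between 133.8 and 300.9 in all 13 mice.

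Cyp8b1 (Entrez 13124, chr9:121914356-121916305, minus strand) was the member that changed most. Its normalized counts without BDL were 426.5, 261.6, 266.9, 281.4 and 269.8. They were 2.53, 3.10, 0.58 and 1.32 in the miR-Ctrl BDL mice, from 7 to 52 reads per liver. The group means, 301.2 and 1.88, differed 160.0-fold, and the ranges were far apart. With the inhibitor they were 158.8, 1.52, 43.7 and 8.21 in mice 1 to 4, between both other groups for 3 mice and among the miR-Ctrl values for mouse 2. The log2 fold change against no BDL was -7.26 (SE 0.46, adjusted p = 3.9e-05) in miR-Ctrl BDL. In the inhibitor-treated mice it was -2.47 (SE 0.99, adjusted p = 0.0998), although all 4 mice were below all 5 without BDL. Without mouse 1 of that group, its highest, the change was -4.04 (adjusted p = 0.0134).

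Cyp7a1 (Entrez 13122, chr4:6265612-6275632, minus strand), the first enzyme of the same route, did not pass in either BDL group with all mice. The 5 livers without BDL had 59.4, 57.2, 66.4, 87.4 and 65.7 normalized counts. The miR-Ctrl BDL livers had 48.1, 49.8, 0.50 and 45.6, and the inhibitor-treated livers 209.5, 0.61, 64.4 and 202.1. In each BDL group 1 mouse was almost without Cyp7a1 (6 reads in miR-Ctrl mouse 3, 8 reads in inhibitor mouse 2), the same 2 mice that stand apart from their groups. Against no BDL the log2 fold change was -0.86 (SE 0.73, adjusted p = 0.389) in miR-Ctrl BDL. Without mouse 3 it was -0.47 (adjusted p = 0.0246), so the remaining 3 mice were lower by a small margin. In the inhibitor-treated mice it was 0.86 (SE 0.90, adjusted p = 0.529), and 1.26 (adjusted p = 0.0191) without mouse 2.

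Both enzymes of the alternative route fell in both BDL groups. Cyp7b1 (Entrez 13123, chr3:18071944-18243890, minus strand) had 161.0, 461.5, 119.0, 307.1 and 283.9 normalized counts without BDL, a wide spread. It had 43.0, 37.3, 22.3 and 35.6 in miR-Ctrl BDL and 84.8, 19.4, 29.0 and 34.0 in the inhibitor-treated mice, with no overlap with no BDL. The log2 fold changes were -2.92 (SE 0.41, adjusted p = 0.000767) and -2.65 (SE 0.53, adjusted p = 0.00874), and the latter was -3.26 without inhibitor mouse 1. Cyp27a1 (Entrez 104086, chr1:74713148-74737897, plus strand) had between 519.5 and 618.5 normalized counts without BDL (median 570.1). It had 244.3, 224.3, 157.7 and 305.6 in miR-Ctrl BDL and 379.1, 194.6, 228.7 and 182.9 in the inhibitor-treated mice. It changed by -1.28 (SE 0.19, adjusted p = 0.00093) and -1.19 (SE 0.23, adjusted p = 0.00727) on the log2 scale, again with no overlap.

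The ring-modifying enzymes differed from each other. Hsd3b7 (Entrez 101502, chr7:127800609-127803802, plus strand), which oxidizes the hydroxyl group on the first ring, had 397.7 to 756.4 normalized counts without BDL (median 574.7). It had 257.9, 240.6, 210.2 and 241.2 in miR-Ctrl BDL, all below that range, and 413.9, 392.9, 245.3 and 228.3 in the inhibitor-treated mice, where mouse 1 reached into it. Its log2 fold changes were -1.22 (SE 0.19, adjusted p = 0.00119) and -0.79 (SE 0.25, adjusted p = 0.0467). The latter call was lost (adjusted p = 0.0655 to 0.136) when no BDL mouse 1, 2, 4 or 5 or inhibitor mouse 3 or 4 was left out. Of 50-base windows of its transcripts, 50.67% also occur in Gm49388, which overlaps it on the same strand, and 9430064I24Rik overlaps it on the other strand, so its counts are uncertain; no other member shared a window. Akr1d1 (Entrez 208665, chr6:37529978-37574921, plus strand), which reduces the steroid double bond, had 101.1 to 178.3 normalized counts without BDL (median 144.2). It had 108.0, 111.8, 91.6 and 126.7 in miR-Ctrl BDL and 135.7, 163.8, 136.4 and 86.9 in the inhibitor-treated mice, inside or just under that range. Its log2 fold changes were -0.42 (SE 0.18, adjusted p = 0.0931) and -0.16 (SE 0.21, adjusted p = 0.616), the former called (adjusted p = 0.0179) only when no BDL mouse 5 was left out.

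Of the genes for the side chain and for conjugation, those of the last steps, Slc27a5 and Baat, were lower in miR-Ctrl BDL, and so was Amacr. Slc27a5 (Entrez 26459, chr7:12988346-12998192, minus strand), the ligase that activates bile acids with coenzyme A, had 867.4 to 1178 normalized counts without BDL (median 965.0). It had 358.6, 370.8, 241.2 and 489.5 in miR-Ctrl BDL and 633.4, 389.6, 376.0 and 256.6 in the inhibitor-treated mice, all below the lowest liver without BDL. On the log2 scale the changes were -1.44 (SE 0.21, adjusted p = 0.000986) and -1.26 (SE 0.26, adjusted p = 0.00956). Baat (Entrez 12012, chr4:49489416-49507915, minus strand), which transfers the acid to the amino acid, had 206.7 to 293.3 without BDL (median 231.8). It had 131.8, 145.4, 199.0 and 145.6 in miR-Ctrl BDL and 202.5, 200.7, 164.0 and 153.2 in the inhibitor-treated mice. On the common scale of the 13 mice all of these were below the no BDL range, with inhibitor mice 1 and 2 just under it. On the scale of the 9 inhibitor and no BDL mice alone, the inhibitor range overlapped that of no BDL. Its changes were smaller, -0.61 (SE 0.15, adjusted p = 0.0121) and -0.39 (SE 0.15, adjusted p = 0.0886), on the log2 scale, the latter called by DESeq2 (adjusted p = 0.0337).

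Amacr (Entrez 17117, chr15:10981756-10996624, plus strand), the racemase that prepares the side chain for oxidation, had 124.5 to 177.0 normalized counts without BDL (median 150.8). It had 94.0, 67.6, 84.3 and 94.6 in miR-Ctrl BDL and 127.8, 115.5, 85.4 and 83.5 in the inhibitor-treated mice. The miR-Ctrl values were all below the no BDL range, and inhibitor mouse 1 was inside it. The log2 fold changes were -0.76 (SE 0.14, adjusted p = 0.00338) and -0.48 (SE 0.17, adjusted p = 0.0656), the latter called by DESeq2 (adjusted p = 0.0295) and without inhibitor mouse 1 (adjusted p = 0.0277) or mouse 2 (adjusted p = 0.0465). Acox2 (Entrez 93732, chr14:8225511-8259019, minus strand), the oxidase of the following step, had 150.1 to 210.3 normalized counts without BDL (median 184.4). It had 193.7, 193.5, 300.9 and 183.8 in miR-Ctrl BDL and 163.9, 297.2, 172.7 and 133.8 in the inhibitor-treated mice. Only the mice that stand apart, miR-Ctrl mouse 3 and inhibitor mouse 2, were above the no BDL range. The log2 fold changes were 0.28 (95% interval -0.11 to 0.67, adjusted p = 0.236) and 0.09 (-0.40 to 0.59, adjusted p = 0.796), which were 0.0845 (adjusted p = 0.635) without miR-Ctrl mouse 3 and -0.19 (adjusted p = 0.367) without inhibitor mouse 2.

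**Figure D2:**
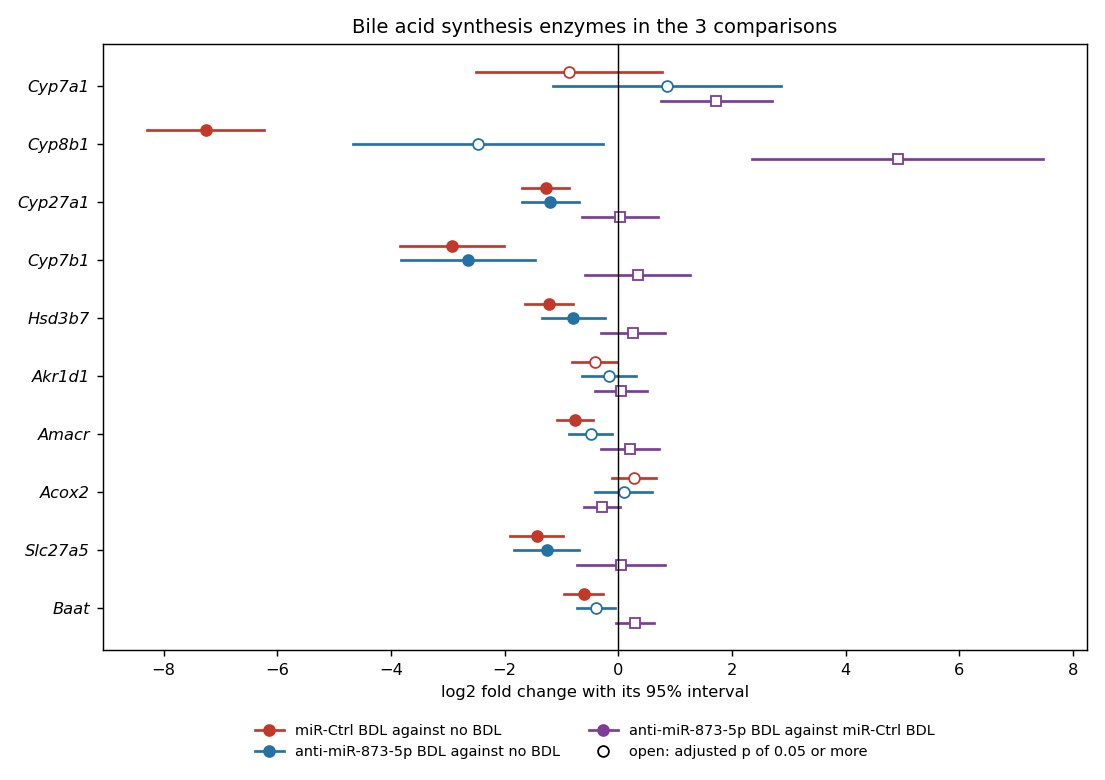
Log2 fold changes of the 10 enzymes with 95% intervals in the 3 comparisons; filled points have an adjusted p under 0.05. In miR-Ctrl BDL against no BDL 7 points are filled and to the left of 0, in the inhibitor-treated mice against no BDL 4 are, and in the comparison of the BDL groups none is, with Cyp7a1 (1.73) and Cyp8b1 (4.91) farthest to the right.

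In the inhibitor-treated mice, 4 of the 10 (Cyp27a1, Cyp7b1, Hsd3b7 and Slc27a5) fell against the same 5 no BDL mice, 0 rose and 6 did not pass, where 8.44% of 13130 genes fell and 13.1% rose. The median log2 fold change of the 10 was -0.64, against -0.007 over all genes tested. In 4 of the 10 (Cyp8b1, Cyp27a1, Cyp7b1 and Slc27a5) every mouse was below every no BDL mouse, as in 8.23% of the genes. Without mouse 2, 5 members were lower (with Amacr) and Cyp7a1 was higher, where 13.4% of genes fell and 18.4% rose. Scaled by library size alone, the median of all genes rose by 0.82, 76.6% of genes were higher and 0.998% lower, and the members split into 1 lower (Cyp7b1) and 3 higher (Acox2, Akr1d1 and Baat), with Cyp27a1 and Slc27a5 no longer called (adjusted p = 0.14 and 0.116). With the 20 most abundant genes left out of the library size, 33.6% of genes were higher and 2.55% lower, with 3 members lower and 0 higher. That a gene passed in one BDL group and not in the other does not show that the groups differed, which the next comparison tests.

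The comparison of the BDL groups asks whether inhibition of miR-873-5p changed these enzymes in ligated livers. Cyp7a1 and Cyp8b1 were higher in each of the 3 inhibitor mice of that table than in each of the 3 miR-Ctrl mice, but neither passed the adjusted threshold. For Cyp8b1 the miR-Ctrl livers had 42, 52 and 22 reads and the inhibitor livers 2539, 724 and 167. The log2 fold change was 4.91 (SE 1.08, 95% interval 2.36 to 7.47, adjusted p = 0.757). For Cyp7a1 it was 1.73 (SE 0.41, 95% interval 0.75 to 2.70, adjusted p = 0.757), from mean normalized counts of 47.9 and 158.7. The values of Cyp7a1 were uneven, with mice 1 and 4 above 200 and mouse 3, at 64.4, inside the range of the livers without BDL.

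Across the 10 members, 0 passed by edgeR, as did 0% of 13746 genes, and 2 (Cyp7a1 and Cyp8b1) had an unadjusted p under 0.05, against 6.28% of the genes. DESeq2's Wald test called both (Cyp7a1 adjusted p = 0.0141, Cyp8b1 adjusted p = 0.00776) among 0.211% of genes. The study, whose methods name DESeq2 for this step, lists Cyp7a1 among the genes upregulated with the inhibitor against miR-Ctrl BDL. Without inhibitor mouse 3, edgeR called 0.00718% of the genes, and the single gene was Cyp7a1 (log2 fold change 2.10, adjusted p = 0.0404). With all 4 mice of each group the values were 1.72 and 4.79 (adjusted p = 0.98 for both), and DESeq2 then called neither (adjusted p = 0.994 for Cyp7a1 and 0.0563 for Cyp8b1). The left-out mice had few reads of either gene, 6 of Cyp7a1 and 7 of Cyp8b1 in miR-Ctrl mouse 3 and 8 and 20 in inhibitor mouse 2.

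All 3 inhibitor mice were above all 3 miR-Ctrl mice in 3 members (Cyp7a1, Cyp8b1 and Baat) and in 6.59% of genes, and below them in 1 member (Acox2) and in 4.77% of genes. The log2 fold changes were 0.29 (95% interval -0.04 to 0.63) for Baat and -0.28 (-0.60 to 0.04) for Acox2. The other 6 were between 0.03 (Cyp27a1, -0.63 to 0.69) and 0.35 (Cyp7b1, -0.58 to 1.27), and their intervals reach past a doubling for Cyp7b1 only. The median over the 10 was 0.23, against 0.0057 over all genes tested. The microRNA itself was not measured by these libraries. Gnmt, a methyltransferase gene, was studied here as a target of the microRNA. It had a log2 fold change of 0.10 between the BDL groups of that table (SE 0.38, adjusted p = 0.97). With the left-out mice included, its mean was 818.3 normalized counts with the inhibitor and 533.2 with miR-Ctrl. The inhibitor mice ranged from 302.2 to 1471, the latter in the left-out mouse. Against no BDL it was lower in miR-Ctrl BDL (-1.49, SE 0.19, adjusted p = 0.000546). In the inhibitor-treated mice it did not pass (-0.88, SE 0.39, adjusted p = 0.135). The study reports that inhibition restored GNMT, measured as mRNA and protein. The longest annotated 3′ untranslated region of Gnmt held 0 exact seed matches. A search for exact matches does not cover other kinds of site and was no test of targeting. The study reports that a mimic of the microRNA lowered the activity of a reporter carrying the Gnmt 3′ untranslated region. In cultured hepatocytes the mimic also lowered Gnmt mRNA and protein.

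**Figure D3:**
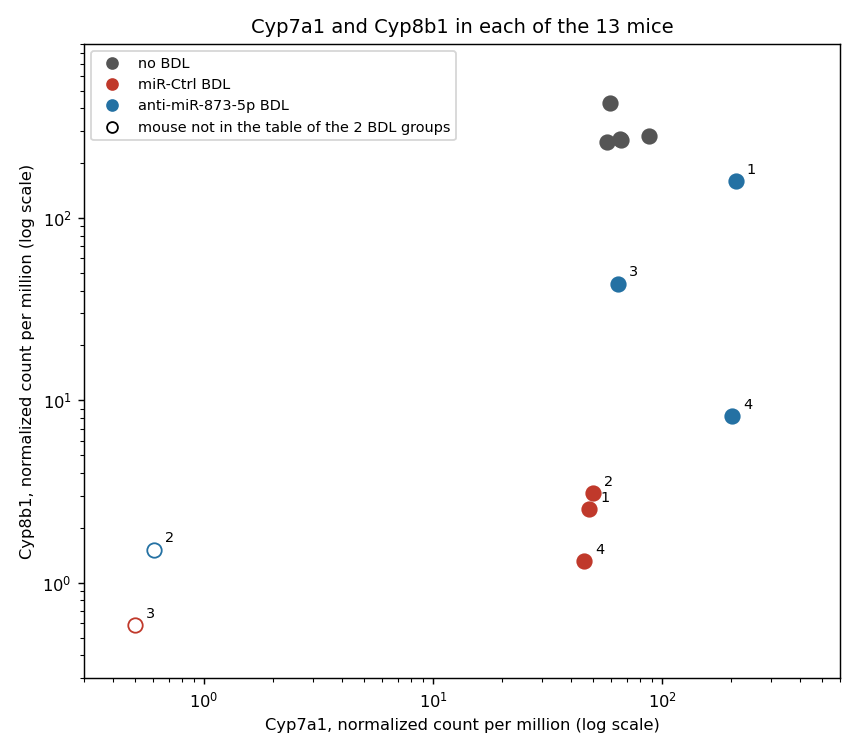
Cyp7a1 (horizontal) against Cyp8b1 (vertical), normalized counts on log axes, 1 point per mouse; numbers are mouse numbers in the BDL groups and open points are the mice missing from the table of the BDL groups. The filled miR-Ctrl points lie far below the no BDL points and slightly to their left (45.6 to 49.8 against 57.2 to 87.4 for Cyp7a1), inhibitor mice 1, 3 and 4 spread between 8.21 and 158.8 on the vertical axis, and both open points sit at the lower left.

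The balance between these enzymes of the classical route was also read within each mouse, where scaling between libraries plays no part. Per kb of exon, the ratio of Cyp8b1 to Cyp7a1 was 15.4, 9.79, 8.60, 6.89 and 8.79 without BDL. It was 0.11, 0.13 and 0.062 in miR-Ctrl mice 1, 2 and 4, so the order of the 2 genes was turned around. In inhibitor mice 1 and 3 the ratio was 1.62 and 1.45, and in mouse 4 it was 0.087, inside the span of the miR-Ctrl mice. In miR-Ctrl mouse 3 (7 against 6 reads) and inhibitor mouse 2 (20 against 8 reads) it was 2.50 and 5.35, from too few reads for a firm value. The ratio was chosen after the levels had been seen, and no test was made of it. Summed over the 10 enzymes, normalized counts were 3262 to 4103 without BDL, 1308 to 1669 in miR-Ctrl BDL and 1369 to 2509 in the inhibitor-treated mice.

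Of 13 other enzymes, cofactors and carriers of bile acid synthesis, 8 fell, 1 rose and 4 did not pass in miR-Ctrl BDL (median log2 fold change -0.58), where 16.6% of all genes fell and 19.1% rose. The counts were also 8 and 1 without miR-Ctrl mouse 3, where 20.1% of all genes fell and 22.2% rose. Scaled by library size alone 4 fell and 2 rose (median 0.20). On that scale 2.1% of all genes fell and 71.6% rose. Abcd3, the peroxisomal carrier that brings in bile acid precursors, had means of 609.1 without BDL and 219.7 normalized counts after it (log2 fold change -1.45, SE 0.22, adjusted p = 0.00104). Cyp46a1, which makes 24-hydroxycholesterol, changed by -2.70 (SE 0.54, adjusted p = 0.00434) from a low mean of 4.08. Ch25h, which makes 25-hydroxycholesterol, was the one that rose (4.07, SE 0.70, adjusted p = 0.00209), from 0 to 2 reads per liver without BDL to 10 to 26 reads. With the inhibitor, 6 of the 12 genes tested fell and 0 rose (median -0.76), where 8.44% of all genes fell and 13.1% rose. Without mouse 2, 7 fell, where 13.4% of all genes fell and 18.4% rose. Scaled by library size alone, 0 of these 12 fell and 2 rose (median 0.0907), where 0.998% of all genes fell and 76.6% rose. Their falls are therefore relative to the bulk of genes.

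Of 17 regulators, 8 fell, 1 rose and 8 did not pass in miR-Ctrl BDL, where 16.6% of all genes fell and 19.1% rose. The median change of the regulators was -0.35 on the log2 scale. The counts were the same without miR-Ctrl mouse 3, where 20.1% of all genes fell and 22.2% rose. Scaled by library size alone the regulators turned to 1 lower and 7 higher (median 0.47). On that scale 71.6% of all genes were higher and 2.1% lower, with a median of 0.79. These directions too are therefore relative to the bulk of genes. The bile acid receptor Nr1h4 had 86.6 to 141.1 normalized counts without BDL and 50.9 to 68.9 in miR-Ctrl BDL, with no overlap (log2 fold change -0.97, SE 0.17, adjusted p = 0.00196). Its target Nr0b2, a repressor of Cyp7a1 and Cyp8b1, was 22.5 to 62.8 and then 18.4 to 22.8 (-0.72, SE 0.29, adjusted p = 0.0819). It was -0.40 (adjusted p = 0.123) without no BDL mouse 2 and was called without no BDL mouse 5 (-0.83, adjusted p = 0.0499). Klb was lower (-1.27, SE 0.25, adjusted p = 0.00356) and its partner Fgfr4 was higher (0.52, SE 0.14, adjusted p = 0.018, lost at 0.056 without miR-Ctrl mouse 2). The activators of the hydroxylase promoters, Nr5a2 and Hnf4a, did not pass, with 0.03 (95% interval -0.34 to 0.39) and -0.24 (-0.62 to 0.15; adjusted p = 0.918 and 0.318), although Hnf4a was called without miR-Ctrl mouse 3 (-0.41, adjusted p = 0.0435). Scaled by library size alone, Nr1h4, Klb and Nr1i3 did not pass (adjusted p = 0.48, 0.125 and 0.243) and Nr5a2 (0.86) and Hnf4a (0.56) were called higher (adjusted p = 0.00102 and 0.00918). The deepest falls among the other regulators were in the lipid receptor Ppara (-1.86, SE 0.29, adjusted p = 0.00133) and in the xenobiotic receptor Nr1i3 (-1.18, SE 0.30, adjusted p = 0.0119).

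With the inhibitor, 2 of the 17 regulators (Klb and Cebpa) fell and 0 rose, a share near the 8.44% of all genes that fell. Without mouse 2 the count was also 2, where 13.4% of all genes fell, and Cebpa did not pass. Scaled by library size alone, 0 fell and 11 rose (median 0.56, against -0.18 with TMM). On that scale 0.998% of all genes fell and 76.6% rose, with a median of 0.82. Between the BDL groups no regulator passed, as 0% of 13746 genes did. The values were 0.57 (SE 0.19) for Nr1h4, -0.21 (SE 0.26) for Nr0b2, -0.15 (SE 0.10) for Nr5a2 and 0.01 (SE 0.12) for Hnf4a on the log2 scale. The study reports from qPCR, in its BDL or Mdr2-deficient mice, that inhibition restored Fxr (Nr1h4) and Shp (Nr0b2). Of the 10 bile acid transporters tested, 3 fell and 3 rose in miR-Ctrl BDL (3 and 2 without mouse 3, and 3 and 5 by library size alone). Of all genes 16.6% fell and 19.1% rose, without mouse 3 20.1% and 22.2%, and by library size alone 2.1% and 71.6%. The uptake carriers Slco1a1 (-6.57, SE 0.59, adjusted p = 0.000121) and Slc10a1 (-2.56, SE 0.34, adjusted p = 0.000573) were among those that fell. From 0 to 13 reads per liver without BDL and 100 to 192 with miR-Ctrl BDL, the basolateral exporter subunit Slc51b rose by 4.38 (SE 0.56, adjusted p = 0.000539), and the exporter Abcc4 by 0.88 (SE 0.26, adjusted p = 0.0246), a call lost without miR-Ctrl mouse 2 or 4 (adjusted p = 0.0751 and 0.0604). Slc51a, listed beside Slc51b, was not tested, with 0 reads in every mouse but inhibitor mouse 2, which had 1. With the inhibitor, 3 transporters fell and 2 rose (3 and 1 without mouse 2, and 2 and 5 by library size alone). Of all genes 8.44% fell and 13.1% rose there, without mouse 2 13.4% and 18.4%, and by library size alone 0.998% and 76.6%.

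**Figure D4:**
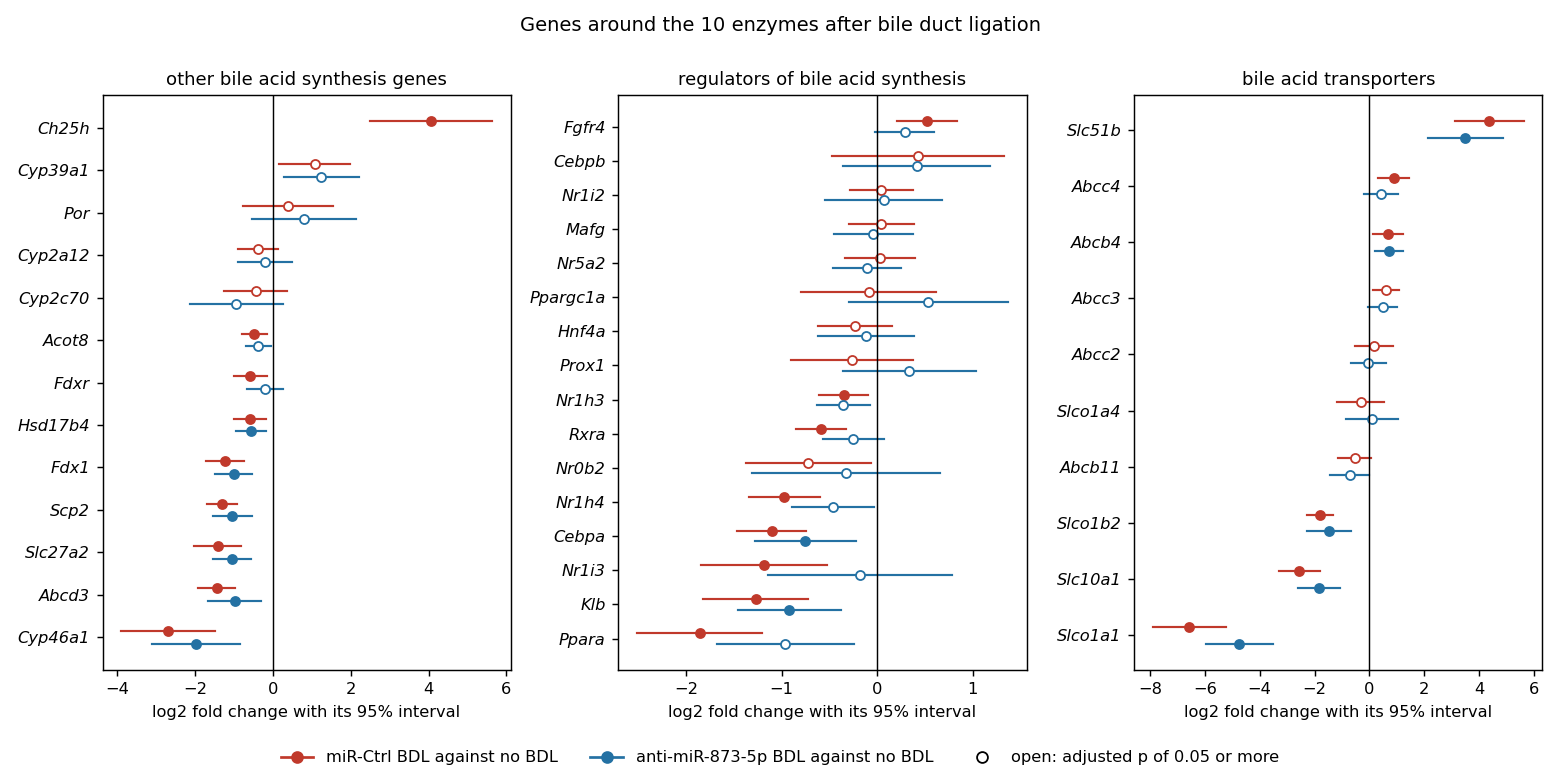
Log2 fold changes with 95% intervals of other bile acid synthesis genes, 16 of the 17 regulators, and transporters in both BDL groups against the same 5 no BDL mice; filled points have an adjusted p under 0.05. Slco1a1 (-6.57) lies farthest to the left and Slc51b (4.38) farthest to the right, while the intervals of Nr5a2 (0.03) and Hnf4a (-0.24) span 0 in miR-Ctrl BDL.

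The genes whose pattern over the 13 mice was most like that of a member were ranked by the root mean square difference of log2 levels, each relative to its no BDL mean, among 12655 genes. For Cyp7a1 they included Dclk3 (difference 1.27) and C730036E19Rik (1.33). For Cyp8b1 they were Inmt (1.12), the carrier Slco1a1 (1.17) and Mup5 (1.25), the last from a family of near-identical genes whose reads may be split. Cyp7b1 had closer neighbours in Dct (0.28), the cytokine receptor Lifr (0.40) and Slc15a5 (0.55), of which Lifr was well expressed, at 252.0 to 485.9 without BDL and 30.4 to 57.8 in miR-Ctrl BDL.

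Hepatocyte markers were abundant in all 13 livers. Their summed level (10 of 12 markers on the common scale) was 122200 to 137300 normalized counts without BDL, 86030 to 121700 in miR-Ctrl BDL and 77180 to 133600 with the inhibitor. In miR-Ctrl BDL 5 of 12 fell and 1 rose (8 and 1 without mouse 3), and with the inhibitor 2 fell and 0 rose (5 and 0 without mouse 2), but by library size alone 1 fell and 4 rose in each. Of all genes, 16.6% fell and 19.1% rose in miR-Ctrl BDL, and 8.44% fell and 13.1% rose with the inhibitor. These shares were 20.1% and 22.2% without miR-Ctrl mouse 3, and 13.4% and 18.4% without inhibitor mouse 2. By library size alone 71.6% and 76.6% of all genes rose in the same order. The sum was 121600 in miR-Ctrl mouse 3 and 133600 in inhibitor mouse 2, the mice that stand apart. Such a sum follows the most abundant markers and hides opposite changes. In miR-Ctrl mouse 3, Alb was at 34300 and Trf at 57150, the lowest and the highest of its group. Cholangiocyte markers (7 of 8) summed to between 29.4 and 40.2 without BDL, between 66.7 and 107.7 in miR-Ctrl BDL and between 59.5 and 134.3 with the inhibitor, and 7 of 8 rose in each BDL group (8 of 8 without inhibitor mouse 2). Stellate cell and fibroblast markers (6 of 8) summed to between 134.6 and 209.2, between 256.4 and 768.2 and between 231.7 and 945.3 in the same order, and 5 of 8 rose in each BDL group (6 without miR-Ctrl mouse 3 and 7 without inhibitor mouse 2). Macrophage and leukocyte markers (7 of 8) summed to between 95.7 and 456.1, between 351.5 and 982.1 and between 293.6 and 912.0, and 5 of 6 tested rose in miR-Ctrl BDL and 1 of 6 with the inhibitor. Without the mice that stand apart the counts were 6 of 6 and 4 of 7, by library size alone they were 6 of 6 in both groups, and between the BDL groups 0 of 6 passed. None of the measured markers was at 0 in all mice. The part of these cells in the members' levels was not tested.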

How the data were processed

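Liver RNA was sequenced by the authors from TruSeq RNA v2 libraries as single reads of 50 nt, and per the labels the notes name CASAVA 1.8.2, FastQC, Trim Galore, TopHat, DESeq2 and the build mm10. The deposited values are raw counts of reads for each Entrez gene, not normalized, with a separate table for each comparison; the counting program and its annotation are not given in the sources used here. Symbols, coordinates, promoters and the microRNA are from RefSeq on GRCm38.p6, and transcripts from GENCODE M21.

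The members and the gene lists were chosen with earlier results of these data known. Tests used edgeR 4.0.16 in R 4.3.3: filterByExpr, TMM scaling and the quasi-likelihood test on the mice of each table, with Benjamini-Hochberg adjustment over all genes tested and a threshold of 0.05. Standard errors are the log2 fold change divided by the root of the test's F value. Levels of all 13 mice are on 1 scale, from 22246 genes with identical counts across the tables, and lengths are unions of exons. DESeq2 1.42.0 was an alternative. The fitting was tested on simulated data. All value columns were used.

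Named without choice by value were the members, Nr1h4, Nr0b2, Nr5a2, Hnf4a, Fgfr4, Klb and Gnmt. From each other list the 2 largest falls and rises that passed in miR-Ctrl BDL were named, and for Cyp7a1, Cyp8b1 and Cyp7b1 the 3 genes most alike. Alb, Trf and Slc51a were named after the levels had been seen. Mouse numbers were taken from the labels. They mark no pairing, and p-values set group differences against the spread between these mice. A gene that the rule for most alike patterns named, and a regulator that is counted but not drawn, are not reported here.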

Additional observations from a re-analysis of the deposited data

Results flagged for a closer look

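The 10 enzymes were looked at in 3 groups each, 30 in all, for a mouse whose distance to its nearest neighbour, divided by the range of its group, passed Dixon's 95% limit. Chance gives about 1 in 20 such groups, and 3 were found. Cyp7a1 was at 0.50 normalized counts in miR-Ctrl BDL mouse 3, while the other 3 mice of its group were between 45.6 and 49.8. Acox2 was at 300.9 in the same mouse, against 183.8 to 193.7 in the others. Cyp8b1 was at 426.5 in no BDL mouse 1, against 261.6 to 281.4 in the others. The second mouse almost without Cyp7a1, anti-miR-873-5p mouse 2 (0.61), was not found by this rule because the other 3 of its group were spread from 64.4 to 209.5.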

How the results depend on the processing

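Of the counts of members, that in miR-Ctrl BDL against no BDL was 7, was 4 with library size alone, and ranged from 7 to 8 with 1 mouse left out. In the inhibitor-treated mice (anti-miR-873-5p BDL) it was 4, was 7 at a threshold of 0.1, and ranged from 3 to 6. Between the BDL groups it was 0, was 2 by DESeq2, and ranged from 0 to 1. The mouse numbers do not pair the mice (correlations of same-numbered mice were between -0.37 and 0.54), and with the replicate block the counts were 7, 4 and 0. In the table of the BDL groups only the mice numbered 1 and 4 are in both groups. With the block that comparison rests on those mice alone, so its 0 and its signs are no firm check. With that block the signs turned for Nr5a2 in miR-Ctrl BDL (-0.0054) and, between the BDL groups, for Cyp27a1 (-0.0547), Akr1d1 (-0.11) and Slc27a5 (-0.0566). With library size alone they turned, in miR-Ctrl BDL, for Akr1d1 (0.38), Amacr (0.0345), Baat (0.20), Nr0b2 (0.13) and Hnf4a (0.56), and in the inhibitor-treated mice for Hsd3b7 (0.0340), Akr1d1 (0.63), Amacr (0.32) and Baat (0.43). Without the 20 most abundant genes in the library size they turned for Hnf4a (0.11) in miR-Ctrl BDL and for Akr1d1 (0.16) in the inhibitor-treated mice. These scalings move all genes by construction; for the other changes the cause was not tested. With 1 mouse left out, Nr5a2 ranged from -0.0414 to 0.18 in miR-Ctrl BDL, and Acox2 from -0.19 to 0.23 in the inhibitor-treated mice against no BDL. Between the BDL groups the ranges were -0.34 to 0.24 for Cyp27a1, -0.30 to 0.62 for Cyp7b1, -0.0679 to 0.42 for Hsd3b7, -0.0577 to 0.23 for Akr1d1, -0.0250 to 0.32 for Amacr and -0.37 to 0.31 for Slc27a5. Cyp7a1 (1.47 to 2.10) and Cyp8b1 (3.46 to 5.44) kept their direction there in all 6. Reads of Cyp7a1 and Cyp8b1 in the mice where they were fewest, 6 to 52, limit the precision of those levels. The DESeq2 fit with all 4 mice and the list counts without single mice were chosen after seeing the data.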
